A study of Homo sapiens with 18 samples.

Results

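The genes described here encode the collagen chains, the laminin chains, fibronectin and 8 further structural or matricellular proteins of the extracellular matrix. They were taken by symbol: every gene named COL, a number, A and a number, every gene named LAMA, LAMB or LAMC with a number, and FN1, VCAN, SPARC, TNC, THBS1, NID1, NID2, HSPG2 and AGRN. This gave 58 of the 22219 genes listed in the deposited tables, 42 in the H1299 table, 52 in the A549 table and 36 in both. The rule itself uses symbols and no measured value, though it was set with earlier results of these data known.

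H1299 and A549 are established human lines of non-small cell lung cancer. Each line had 3 groups: cells given a control siRNA (siControl), cells given siRNAs that target YAP (siYAP, gene YAP1), and cells given siRNAs that target TAZ (siTAZ, gene WWTR1), where each SMARTpool combines several siRNAs to 1 transcript. All groups, controls included, received 30 nM of siRNA for 48 h and were without serum for the last 18 h. The medium was RPMI-1640 for H1299 and DMEM for A549, each with 10% fetal bovine serum until then, and poly(A) RNA was sequenced from 3 libraries a group, 18 in all. The labels do not say that the replicates came from separate cultures, so a p-value here reflects only library-to-library spread. The study set out to compare what YAP and TAZ each do to the transcriptome of lung cancer cells.

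YAP and TAZ are paralogous coactivators that work on DNA through TEAD factors and that the Hippo kinases restrain. Basement membranes are sheets built from a laminin network and a collagen IV network, which nidogens, perlecan (HSPG2) and agrin (AGRN) join. Laminins and collagens are assembled as trimers, some of them from chains of different genes. Interstitial matrix holds fibrillar collagens and fibronectin, and matricellular proteins such as thrombospondin-1 (THBS1) and SPARC act on cells without forming the scaffold.

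Upstream sequence is shown for the genes whose levels the results below turn on, where a listed RefSeq promoter was found (build GRCh38.p14, 46 of the 58 members, 59 promoters). COL1A1 and COL6A1 are among the 12 members without an entry. Each sequence lies within the 250 bases before a transcription start and outside every exon of GENCODE 29, and is written 5′ to 3′ on the gene's strand. Capitals mark letters that match GGAATG (the core bound by TEAD factors), TGANTCA (AP-1), TGACGTCA (CRE) or TATAAA, on either strand.
THBS1, chr15:39580829-39581078, plus strand: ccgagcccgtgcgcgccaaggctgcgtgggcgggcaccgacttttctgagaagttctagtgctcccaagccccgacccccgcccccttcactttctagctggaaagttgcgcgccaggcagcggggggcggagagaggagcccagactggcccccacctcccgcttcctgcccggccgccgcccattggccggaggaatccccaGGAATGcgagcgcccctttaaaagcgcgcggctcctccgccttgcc
FN1, chr2:215436173-215436252, minus strand: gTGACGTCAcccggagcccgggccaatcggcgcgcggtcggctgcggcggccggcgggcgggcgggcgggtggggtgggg
LAMB3, the most upstream of its 3 listed starts, chr1:209652467-209652675, minus strand: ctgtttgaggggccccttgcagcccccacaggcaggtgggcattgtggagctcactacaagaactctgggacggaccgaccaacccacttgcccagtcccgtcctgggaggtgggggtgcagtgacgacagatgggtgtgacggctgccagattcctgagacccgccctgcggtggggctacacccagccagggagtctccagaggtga
COL4A6, the most upstream of its 2 listed starts, chrX:108439498-108439708, minus strand: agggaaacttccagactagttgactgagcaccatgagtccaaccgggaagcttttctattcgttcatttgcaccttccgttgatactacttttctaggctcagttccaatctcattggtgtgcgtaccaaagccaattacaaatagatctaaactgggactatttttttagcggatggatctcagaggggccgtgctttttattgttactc

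The THBS1 stretch holds 1 GGAATG, which begins 46 bases before the start. The FN1 stretch holds the CRE letters, which begin 183 bases before the start. For LAMA3 the only listed start lies inside the annotated gene and not at its upstream end. The 250 bases before that start, which are not shown, hold 2 AP-1 matches at 125 and 69 bases. The stretches shown for LAMB3 and COL4A6 hold none of these letters, which says nothing of the factors, and a later LAMB3 start has an AP-1 match 67 bases before it.

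The GGAATG letters stood in 6 of the 59 member promoters (10.2%), beside 11.9% of all 35116 listed promoters. Besides THBS1 these were LAMA2, SPARC and COL12A1, which recur below, and COL10A1 and COL11A2. The windows around 3 of them, with GGAATG in capitals, allow the flanks to be compared.
THBS1, chr15:39581021-39581050, plus strand: gaggaatccccaGGAATGcgagcgcccctt
LAMA2, chr6:128882959-128882988, plus strand: caggtcaagctaGGAATGatccggtctcag
COL12A1, chr6:75206203-75206232, minus strand: cctcacgccgaaGGAATGctcgaagtatgc

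Of the other letters searched, TGANTCA stood in 5.08% of member promoters and 6.57% of all, TATAAA in 11.9% and 10.7%, and TGACGTCA in 1.69% (FN1 alone) and 1.65%. The SP1 letters GGGCGG, which are not capitalised above, stood in 62.7% of member promoters and 42.6% of all. A match is a description of these letters and not a shown binding site. The collagen IV genes lie head to head in pairs, and the listed starts are 127 bases apart for COL4A1 and COL4A2, 419 for COL4A3 and COL4A4, and 380 for COL4A5 and COL4A6. The COL4A6 stretch above therefore lies between those starts.

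Libraries held 16.8 to 20.8 M assigned reads in the H1299 table and 10.7 to 45 M in the A549 table. The members took 0.287% to 0.399% of the reads in H1299 and 0.377% to 0.504% in A549. The siRNAs lowered their own targets: YAP1 stood at 83.5, 83.8 and 77.8 counts per M reads (CPM) in H1299 controls and at 12.8, 19.6 and 11.7 with siYAP, and WWTR1 at 265, 276 and 229 and at 36.1, 82.6 and 29 with siTAZ. In A549, YAP1 fell from 58.2 ± 1.31 to 17.3 ± 2.04 CPM and WWTR1 from 177 ± 2.73 to 57.7 ± 11.2 (mean ± SD, n = 3 libraries). In H1299, WWTR1 was at 173, 203 and 167 CPM with siYAP, below every control (-0.51 ± 0.26, adjusted p = 0.204, and 0.0398 with the replicate number as a block). YAP1 was at 96.4, 106 and 100 CPM with siTAZ, above every control (0.30 ± 0.13, adjusted p = 0.117, and 0.0316 with the block). In A549, WWTR1 with siYAP was at 158 ± 4.55 CPM, also below every control (-0.16 ± 0.05, adjusted p = 0.0846), and YAP1 with siTAZ at 59.9 ± 2.34. Epithelial markers, of which 5 of 6 are listed in H1299 (not CDH1) and 6 of 6 in A549, summed to 413 to 462, 437 to 513 and 331 to 414 CPM with siControl, siYAP and siTAZ in H1299. In A549 they summed to 4528 to 5811, 4252 to 5106 and 3408 to 4580 CPM. The lowest single sum was in a siTAZ library in both lines, though the siTAZ and siControl ranges overlapped in both. Summed fibroblast markers stood at 10.2 to 13.4 and 1.26 to 3.34 CPM, and leukocyte markers at no more than 0.729 and 1.28, with PTPRC and CD3E not listed. Endothelial markers (3 of 4 listed in H1299, not CDH5) summed to 1.13 to 1.89 CPM with siControl, 2.19 to 3.51 with siYAP and 2.01 to 2.74 with siTAZ in H1299, and to 0.566 to 1.43 in A549. The part of these markers in the results was not tested. The alveolar type 2 surfactant genes SFTPC, SFTPB and SFTPA1 are listed in neither table, and NAPSA, the remaining marker of that list, was at 0.505 to 1.01, 1.44 to 1.95 and 1.30 to 1.41 CPM with siControl, siYAP and siTAZ in H1299.

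In the control libraries the 2 lines carried different sets of chains. Levels between genes are given as CPM per kb of exon (GENCODE 29). In H1299 the highest reported here were COL13A1 (a transmembrane collagen, 62.4), LAMB3 (48.9), COL6A2 (47.6), LAMB2 (37.5), AGRN (37.0), COL6A1 (36.1), COL18A1 (the source of endostatin, 35.1), LAMB1 (34.2) and LAMA5 (32.0). In A549 they were FN1 (96.6), LAMB1 (71.8), LAMA5 (48.4), AGRN (47.1), LAMC1 (41.5), LAMB2 (28.8), COL18A1 (26.8), COL5A2 (19.5), COL7A1 (the anchoring fibril collagen, 16.9) and LAMB3 (14.0). LAMA5, LAMB1, LAMB2, LAMB3, AGRN and COL18A1 were on both lists. Laminin chains made up 48.2% ± 1.70 of all member CPM in H1299 controls and 39.7% ± 3.72 in A549 controls, and fibronectin 2.22% ± 0.573 and 21.0% ± 2.77 (SD, n = 3).

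**Figure D1:**
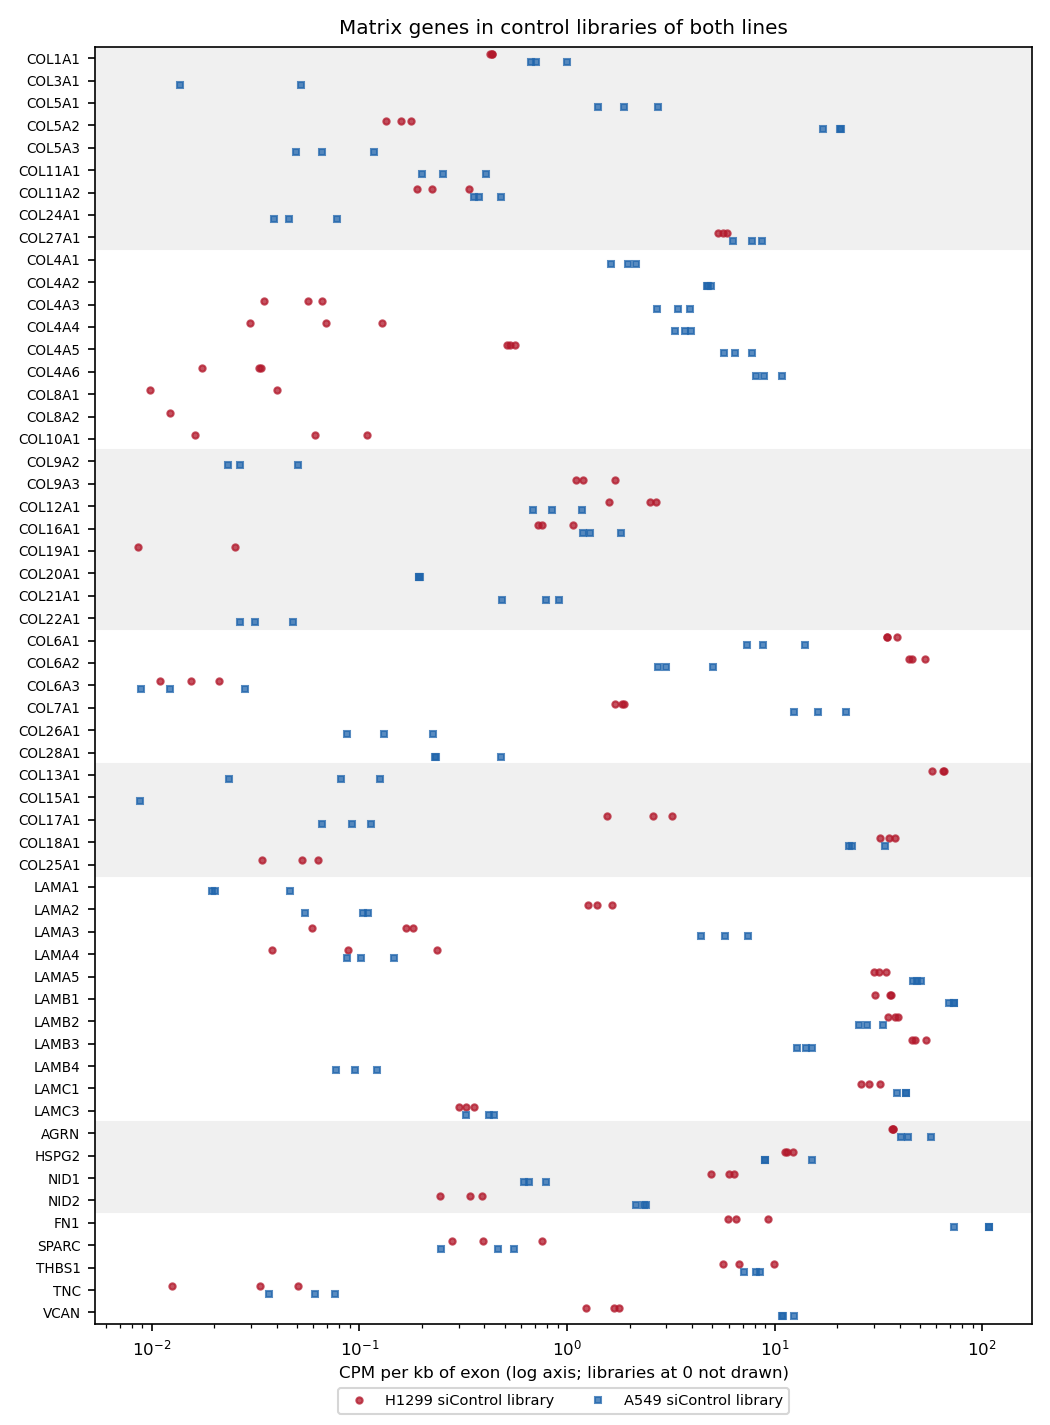
Level of 57 members in the control libraries of H1299 and A549, as CPM per kb of exon on a log axis, 1 point per library, ordered by class of protein. COL13A1 (62.4) is the highest mean in H1299 and FN1 (96.6) in A549, while the collagen IV chains sit at or below 0.534 in H1299 and between 1.91 and 9.28 in A549.

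Chains of one trimer did not always stand at like levels. The laminin-511 chains LAMA5, LAMB1 and LAMC1 were at 32.0, 34.2 and 28.9 CPM per kb in H1299 controls and at 48.4, 71.8 and 41.5 in A549 controls. Of laminin-332, the anchoring laminin of epithelia, the beta chain LAMB3 was at 48.9 in H1299, where the alpha chain LAMA3 was at 0.136. In A549 LAMA3 and LAMB3 were at 5.87 and 14.0. Of collagen VI, the COL6A1 and COL6A2 chains were at 36.1 and 47.6 in H1299 and the third chain, COL6A3, at 0.0158, and in A549 at 10.0, 3.58 and 0.0163. COL6A3 passed the filter on low counts in neither line. Of collagen I, COL1A1 was at 0.431 and 0.792 in H1299 and A549, and COL1A2 is listed in neither table. Of collagen V, COL5A2 was at 0.157 in H1299 and 19.5 in A549, and COL5A1, not listed in the H1299 table used here, was at 2.01 in A549.

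The difference between the lines was tested in a joint fit of all 18 libraries with edgeR's quasi-likelihood test and Benjamini-Hochberg adjustment. Each log2 difference carries ± its standard error, and a gene is called at an adjusted p below 0.05. Of the 35 members tested, 9 were higher and 19 lower in H1299 controls than in A549 controls, 80%, beside 78.5% of all 15816 genes tested (40% higher, 38.5% lower). These counts include COL13A1, which passed the filter on low counts only through H1299, among the higher. They include COL4A6 and COL4A3, which among the controls passed only through A549, among the lower. TNC, which passed only through A549, is within the 35. The part of these members in the counts is a description. Line, medium and experiment go together here and cannot be told apart.

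The collagen IV chains showed the widest gap of any class. COL4A6 was at 0.229, 0.119 and 0.224 CPM in H1299 controls and at 61.0, 55.7 and 74.5 in A549 controls, a log2 difference of -8.63 ± 0.18 (adjusted p = 5.92e-19). COL4A3, COL4A4 and COL4A5 were lower in H1299 by -6.27 ± 0.20, -5.87 ± 0.23 and -3.94 ± 0.15 in log2 (adjusted p = 2.87e-16, 8.61e-15 and 9.12e-15). No H1299 control library of COL4A6, and 1 of COL4A3, reached the 0.533 CPM cutoff of the filter on low counts. Among the controls both genes thus passed only through A549, so both differences are descriptions. The COL4A1 and COL4A2 pair, the ubiquitous basement membrane collagen, is not listed in the H1299 table used here and stood at 14.4 ± 1.98 and 62.4 ± 1.64 CPM in A549 controls.

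Other members lower in H1299 were COL5A2 (log2 -7.26 ± 0.15), LAMA3 (-5.70 ± 0.18), FN1 (-4.02 ± 0.18), COL7A1 (-3.50 ± 0.09), the proteoglycan versican VCAN (-3.18 ± 0.14) and nidogen-2 NID2 (-3.16 ± 0.19). LAMB1, COL1A1, COL16A1, COL11A2, LAMA5, LAMC1, COL27A1, AGRN and LAMC3 were also lower, by -1.38 to -0.56. Members higher in H1299 included COL13A1 (9.36 ± 0.22), the hemidesmosome collagen COL17A1 (4.40 ± 0.41), LAMA2 (the merosin chain, 3.64 ± 0.29), COL6A2 (3.48 ± 0.10), nidogen-1 NID1 (2.73 ± 0.15), COL6A1 (1.59 ± 0.07), LAMB3 (1.49 ± 0.10) and COL12A1 (1.05 ± 0.30). COL13A1 passed the filter only through the H1299 libraries, so its difference is a description. Nidogen-1 and nidogen-2, which do the same linking, thus stood on opposite sides: NID1 at 33.9 ± 4.29 and 4.04 ± 0.526 CPM in H1299 and A549, and NID2 at 1.64 ± 0.372 and 11.6 ± 0.690. NID2 shares 1089 exon bases with RTRAF on the other strand, and VCAN 453 with VCAN-AS1, from which reads cannot be told apart without strand.

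TNC, THBS1, LAMA4, HSPG2, SPARC, LAMB2 and COL18A1 did not pass, at log2 -1.06 ± 0.49, -0.40 ± 0.27, -0.28 ± 0.46, -0.19 ± 0.09, -0.07 ± 0.32, 0.07 ± 0.08 and 0.10 ± 0.09. TNC passed the filter on low counts only through the A549 libraries, so its value is a description. The joint scaling places H1299 lower than CPM scaled within each line does, by a median of -0.31 (range -0.32 to -0.25) over 19 members at 10 CPM or more in both lines. HSPG2, SPARC and LAMA4 turn sign between these scalings, and smaller differences should be read with this shift.

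**Figure D2:**
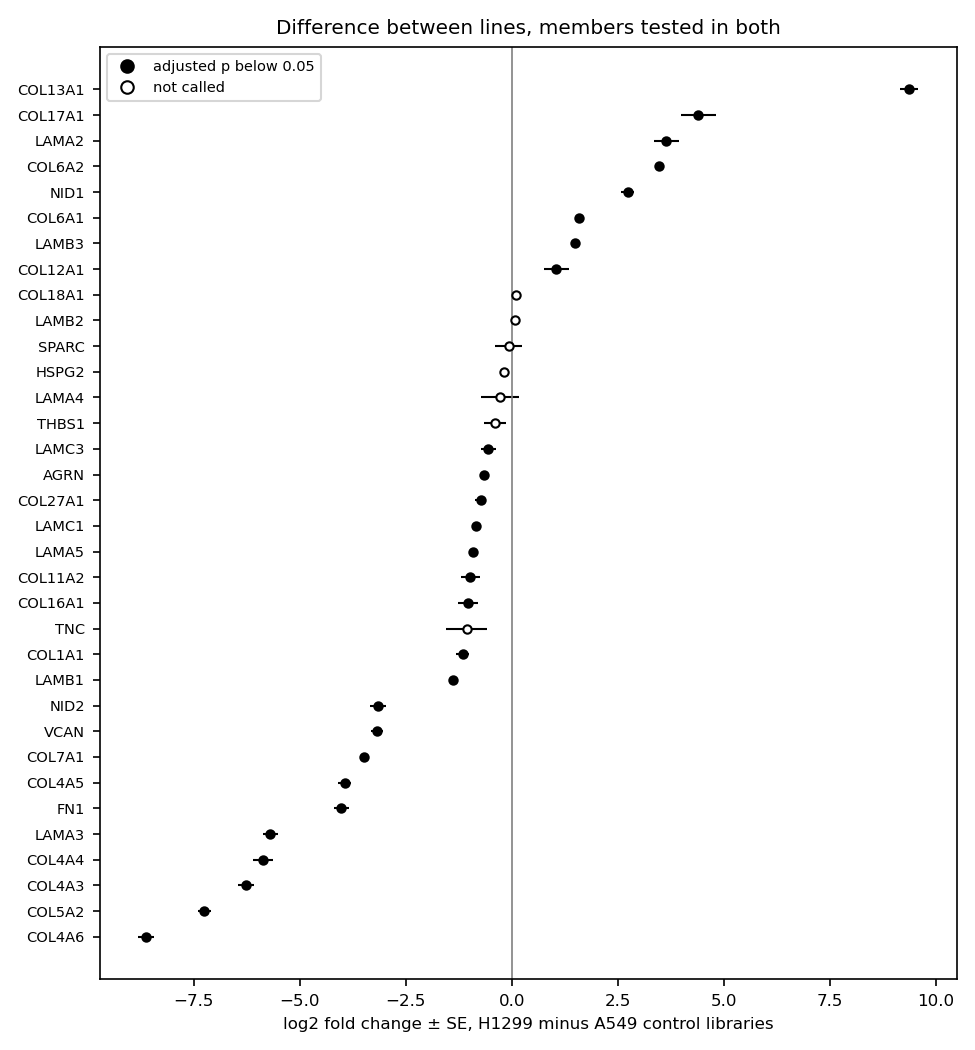
Log2 difference between H1299 and A549 control libraries for 34 members tested in both lines, with the standard error of the fit, where filled points have an adjusted p below 0.05. Differences run from -8.63 for COL4A6 to 9.36 for COL13A1, with 8 filled points above 0 and 19 below. The values of COL4A6, COL4A3, COL13A1 and TNC are descriptions.

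With siYAP in H1299, COL1A1 (the alpha-1 chain of collagen I) rose and the laminin chain LAMB3 and thrombospondin-1 fell, while LAMA5, LAMA2, COL6A1, COL27A1 and COL9A3 rose. Of the 36 members tested, 7 were higher and 2 lower, 25% of them, beside 16.6% of all 15775 genes tested (7.89% higher, 8.75% lower). Log2 changes were positive in 25 of the 36 (69.4%, beside 50.8% of all genes), with a median of 0.20 beside 0.01. These counts include COL4A6, among the 7 higher, and COL4A3, not called. Both passed the filter on low counts only through the siYAP libraries, so their part in the counts is a description. In these bulk RNA samples, fewer cells that express a gene and less RNA per cell cannot be told apart.

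COL1A1 (ENSG00000108821.13, chromosome 17, 50183289 to 50201632, GRCh38) was at 2.92, 2.86 and 2.92 CPM with siControl and at 6.01, 6.03 and 7.17 with siYAP. Every siYAP library lay above every control, and the log2 change was 1.14 ± 0.18 (2.21-fold, adjusted p = 0.00175). COL27A1, another fibrillar collagen, went from 43.7 ± 2.06 to 69.2 ± 7.77 CPM (0.66 ± 0.16, adjusted p = 0.0124). Of the 4 fibrillar collagens tested, these 2 rose (50%, beside 16.6% of all genes called). COL5A2 and COL11A2 did not pass, at 0.13 ± 0.32 and 0.45 ± 0.25.

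LAMB3 (chromosome 1, 209614870 to 209652466), the beta chain of laminin-332, was at 240, 206 and 213 CPM with siControl and at 132, 154 and 118 with siYAP. The groups did not overlap, and the log2 change was -0.70 ± 0.12 (0.614-fold, adjusted p = 0.0024). Its partner LAMA3 was at 1.5 ± 0.739 and 1.16 ± 0.229 CPM (-0.38 ± 0.36) and was not called.

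LAMA5, the alpha chain of laminin-511 and laminin-521, was at 362, 344 and 391 CPM and rose to 571, 456 and 500 (0.48 ± 0.11, adjusted p = 0.00904), with no overlap. Its partners LAMB1, LAMB2 and LAMC1 were at -0.03 ± 0.11, 0.19 ± 0.10 and 0.21 ± 0.12, not called, and LAMC1 was called with the block (adjusted p = 0.0235). LAMA2, the alpha chain of muscle laminin, went from 13.9 ± 1.86 to 21.6 ± 5.17 CPM, with overlapping libraries (0.63 ± 0.20, adjusted p = 0.0467). Of the 10 laminin chains tested, 2 rose and 1 fell (30%, beside 16.6% of all genes called).

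COL6A1 went from 153 ± 9.96 to 204 ± 15.9 CPM (0.42 ± 0.08, adjusted p = 0.00585), and its partner COL6A2 was not called (0.17 ± 0.09). COL9A3, a fibril-associated chain, went from 3.32 ± 0.796 to 5.69 ± 0.834 CPM (0.78 ± 0.19, adjusted p = 0.0136). COL4A6 had 4, 2 and 4 reads in the controls and 16, 20 and 31 with siYAP, 0.191 ± 0.0622 and 1.11 ± 0.337 CPM (log2 2.50 ± 0.44, adjusted p = 0.00295). It is named after its values were seen, and it passed the filter on low counts only through the siYAP libraries, so its call is a description. Its head-to-head neighbour COL4A5 was not called (0.27 ± 0.23).

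THBS1 (chromosome 15, 39581079 to 39599466), which activates latent TGF-beta, was at 76.8, 52.5 and 44.0 CPM with siControl and at 40.5, 24.7 and 18.5 with siYAP. The groups did not overlap, though both span a wide range, and the log2 change was -1.05 ± 0.33 (0.483-fold, adjusted p = 0.0418). THBS1 shares 361 exon bases with AC037198.2 and FSIP1 on the other strand, from which reads cannot be told apart without strand. FN1 was at 59.5, 84.8 and 54.5 CPM and at 52.9, 65.1 and 38.7 with siYAP, which overlap (-0.34 ± 0.19, adjusted p = 0.243), and SPARC was at -0.78 ± 0.36 (adjusted p = 0.152). With the block FN1 was called lower (-0.35, adjusted p = 0.00593).

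With the replicate number as a block the siYAP call covered 16 of 36 members (12 higher, 4 lower, 44.4%, beside 28.3% of all genes, 13.6% higher and 14.7% lower): the same 9, with others that included COL12A1, COL17A1, FN1, HSPG2, LAMC1 and NID1. DESeq2 did not call THBS1 (adjusted p = 0.0957) and gave COL4A6 no adjusted p. The call was lost for LAMA2 without siControl 1, 2 or 3, siYAP 1 or 3 or siTAZ 1 or 3 (log2 0.51 to 0.73), for COL9A3 without siControl 1 or 3 or siYAP 3 (0.66 to 0.70), and for THBS1 without siControl 1 (-0.79), siYAP 2 (-0.97) or siYAP 3 (-0.82). Without siYAP 1 it was lost for COL27A1 (0.55) and LAMA5 (0.37). Leaving out any other library ended no call of these members.

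**Figure D3:**
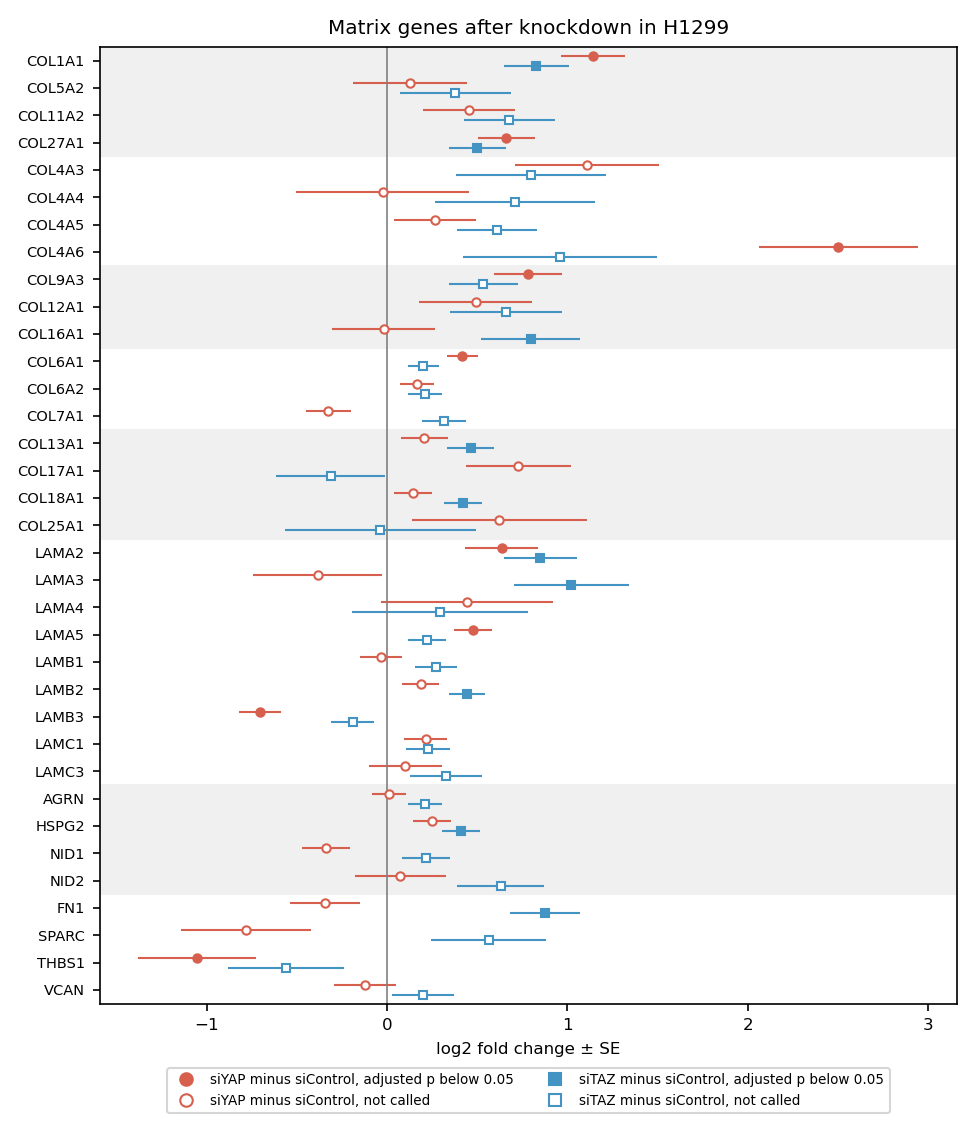
Log2 change of 35 members tested in H1299, siYAP against siControl and siTAZ against siControl, with the standard error of the fit. Filled points have an adjusted p below 0.05: 7 above and 2 below 0 for siYAP, and 10 above 0 for siTAZ.

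With siTAZ in H1299, 10 of the 36 members rose and none fell, 27.8% of them, beside 23.3% of all genes tested (10.9% higher, 12.4% lower). The members that rose were COL1A1, fibronectin, LAMB2, LAMA2, LAMA3, COL18A1, perlecan, COL13A1, COL27A1 and COL16A1. By edgeR at an unadjusted p below 0.05, 19 of the 36 members differed, beside 37.2% of all genes. Log2 changes were positive in 32 of the 36 (88.9%, beside 50.9% of all genes), with a median of 0.42 beside 0.01. Both knockdowns were set against the same 3 control libraries.

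FN1 (chromosome 2, 215360440 to 215436172) went from 59.5, 84.8 and 54.5 CPM to 127, 141 and 97.2 with siTAZ. All siTAZ libraries lay above all controls, and the log2 change was 0.88 ± 0.19 (1.83-fold, adjusted p = 0.00634). COL1A1 was at 6.14, 5.11 and 4.21 CPM with siTAZ, again above every control (0.83 ± 0.18, 1.77-fold, adjusted p = 0.00603). COL27A1 was at 76.6, 43.9 and 65.3 CPM, where siTAZ 2 fell within the controls (0.50 ± 0.16, adjusted p = 0.0341).

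Of the 10 laminin chains tested, 3 rose and none fell (30%, beside 23.3% of all genes called). LAMB2, the beta chain of laminin-521, went from 202, 220 and 227 to 313, 274 and 295 CPM with no overlap (0.44 ± 0.10, adjusted p = 0.00803). LAMA2 went from 13.5, 12.3 and 15.9 to 28.2, 17.8 and 29.3 CPM (0.85 ± 0.20, adjusted p = 0.00937). LAMA3, low in this line, went from 2.01, 0.655 and 1.85 to 3.75, 2.41 and 3.10 CPM (1.02 ± 0.32, adjusted p = 0.0331), while LAMB3 did not pass (-0.19 ± 0.12).

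COL18A1 went from 240 ± 19.8 to 322 ± 27.6 CPM (0.42 ± 0.11, adjusted p = 0.0117) and HSPG2 from 167 ± 8 to 221 ± 27.0 (0.41 ± 0.10, adjusted p = 0.0125). Both are heparan sulfate proteoglycans of basement membranes, and each shares exon sequence with a gene on the other strand (SLC19A1 over 1401 bases and LDLRAD2 over 1658), from which reads cannot be told apart without strand. COL13A1 went from 203 ± 15.3 to 280 ± 54.0 CPM (0.46 ± 0.13, adjusted p = 0.0198). COL16A1 went from 5.22 ± 1.16 to 9.10 ± 3.66 CPM with overlap (0.80 ± 0.27, adjusted p = 0.0493).

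THBS1 with siTAZ was at 63.0, 27.4 and 27.2 CPM, overlapping the controls (-0.56 ± 0.32, adjusted p = 0.223), and was called lower with the block (-0.62, adjusted p = 0.000568). SPARC and LAMB1 did not pass, at 0.56 ± 0.32 and 0.27 ± 0.11, and LAMB1 was called with the block (adjusted p = 0.00468). LAMC1 was at 0.23 ± 0.12 and was also called with the block (adjusted p = 0.0148).

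With the block the siTAZ call covered 22 members (20 higher, 2 lower, 61.1%, beside 35.5% of all genes, 16.7% higher and 18.9% lower), the same 10 with AGRN, COL11A2, COL12A1, COL17A1 (lower), COL4A5, COL6A1, COL6A2, COL9A3, LAMA5, LAMB1, LAMC1 and THBS1 (lower). Without the block the count of members moved to 16 without siTAZ 2 and to 5 without siTAZ 3. Over all genes these fits called 4301 and 1715, beside 3680 with all libraries. Calls were lost for COL16A1 without siControl 1 or 2, siYAP 1 or 3 or siTAZ 1 or 3 (0.59 to 0.81), for COL27A1 without any siControl library or siTAZ 1 or 3 (0.32 to 0.53), and for COL13A1 without siControl 1 or 2 or siTAZ 1 or 3 (0.38 to 0.50). They were also lost for LAMA3 without siControl 2 (0.67), siTAZ 1 (0.86) or siTAZ 3 (1.04), for HSPG2 without siControl 1 (0.39) or siTAZ 1 (0.31), for COL18A1 without siControl 3 (0.36) and for LAMA2 without siTAZ 3 (0.74). COL1A1, FN1 and LAMB2 were called whichever single library was left out.

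The knockdowns were then compared with each other in H1299. Fibronectin, COL7A1, LAMB3, LAMA3, NID1 and SPARC were lower with siYAP than with siTAZ, and COL4A6 and COL17A1 higher. These are 8 of 36 members, 22.2%, beside 11.7% of all genes (5.6% higher, 6.1% lower). The median log2 difference was -0.23, beside 0.01 over all genes. COL4A6 and COL4A3, which passed the filter only through the siYAP libraries, are within the 36.

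FN1 was at 52.9, 65.1 and 38.7 CPM with siYAP and at 127, 141 and 97.2 with siTAZ (-1.22 ± 0.19, adjusted p = 0.0016). COL7A1 was at 12.7, 15.4 and 12.2 and at 22.2, 18.0 and 22.5 CPM (-0.64 ± 0.12, adjusted p = 0.00489). In neither gene did the groups overlap, and COL7A1 was called against siControl with neither siRNA (-0.33 ± 0.13 and 0.32 ± 0.12).

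LAMB3 differed by -0.51 ± 0.12 (adjusted p = 0.0132), LAMA3 by -1.41 ± 0.32 (adjusted p = 0.0136) and NID1 by -0.55 ± 0.13 (adjusted p = 0.0166). SPARC, at 0.852, 0.853 and 1.33 CPM with siYAP and 2.23, 3.21 and 2.33 with siTAZ, differed by -1.35 ± 0.34 (adjusted p = 0.0206). COL17A1 was at 24.3 ± 8.85 and 11.9 ± 3.85 CPM with overlapping libraries (1.04 ± 0.29, adjusted p = 0.0349), and COL4A6, which passed the filter only through the siYAP libraries, was at 1.11 ± 0.337 and 0.381 ± 0.160 CPM, and its call among the 8 (1.54 ± 0.37) is a description. COL1A1, raised by both siRNAs, did not differ detectably between them (0.32 ± 0.16, adjusted p = 0.242).

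With the block 18 members differed (5 higher, 13 lower with siYAP, 50%, beside 21.5% of all genes, 11% higher and 10.5% lower). They were the same 8, with others that included COL13A1, COL16A1, COL18A1, COL6A1, LAMA5, LAMB1, LAMB2, THBS1 and VCAN. DESeq2 called 7 members, all lower with siYAP: it did not call COL17A1 and gave COL4A6 no adjusted p, so neither of the higher calls stood. The count fell to 3 without siYAP 3 and to 4 without siTAZ 1. Over all genes 856 were called without siYAP 3, beside 1846 with all libraries, and the count without siTAZ 1 is not given here. The call was lost for COL17A1 without siYAP 1 or 3 or siTAZ 1 or 2 (0.75 to 1.07), for SPARC without siYAP 1 or 2 or siTAZ 2 (-1.25 to -1.17), for NID1 without siYAP 3 or siTAZ 1 or 3 (-0.56 to -0.43), for LAMA3 without siYAP 3 (-1.26) or siTAZ 1 (-1.25), for LAMB3 without siYAP 3 (-0.44) or siTAZ 1 (-0.40), and for COL4A6 without siYAP 3 (1.27) or siTAZ 2 (1.22). FN1 and COL7A1 were called whichever single library was left out.

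In A549 the replicate number entered the fit as a block, so changes are read within a number. With siYAP, COL1A1, fibronectin and COL4A3 rose and NID2 and COL12A1 fell. These are 5 of the 43 members tested (3 higher, 2 lower), 11.6%, beside 5.68% of all 16008 genes tested (2.5% higher, 3.17% lower). The median log2 change was 0.05, beside 0 over all genes. None of the 11 laminin chains tested was called. By edgeR without adjustment 14 of the 43 members had a p below 0.05, beside 18.8% of all genes.

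COL1A1 was at 4.51, 4.78 and 6.69 CPM in controls 1, 2 and 3 and at 6.32, 6.80 and 9.14 in the same numbers of siYAP, higher in each pair though the groups overlap (0.48 ± 0.11, 1.40-fold, adjusted p = 0.00443). FN1 was at 984, 668 and 983 CPM and at 1140, 789 and 1031, higher in each pair (0.17 ± 0.04, 1.13-fold, adjusted p = 0.00796). COL4A3, an alpha chain of the specialised collagen IV of kidney and lung, was at 27.6, 22.1 and 31.5 and at 30.2, 28.9 and 34.5 CPM (0.25 ± 0.06, adjusted p = 0.0105), and its neighbour COL4A4 did not pass (0.12 ± 0.06).

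NID2 was at 10.8, 12.1 and 11.8 CPM and at 8.20, 7.14 and 11.4 with siYAP, where pair 3 barely differed (-0.49 ± 0.10, adjusted p = 0.00188), with the limit that its exons overlap RTRAF. COL12A1, a fibril-associated collagen, was at 10.3, 8.26 and 14.3 CPM and at 6.98, 6.11 and 12.1 (-0.40 ± 0.10, adjusted p = 0.00767), lower in each pair. COL4A1, COL4A2, LAMB1, LAMC1, THBS1 and SPARC did not pass, at 0.08 ± 0.07, 0.11 ± 0.04, -0.07 ± 0.04, 0.03 ± 0.04, -0.12 ± 0.05 and -0.15 ± 0.24. LAMB3, called lower in H1299, was at -0.14 ± 0.05 (adjusted p = 0.0662).

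Without the block no member was called in A549 with siYAP, beside 0.00625% of all genes, and 1 member had an unadjusted p below 0.05 by edgeR. The share of all genes at that unadjusted p was not taken for any fit without the block. DESeq2 with the block called 2 of the 5, without COL12A1, COL1A1 and COL4A3. The count fell to 0 without siControl 2 and without siYAP 2, the deepest libraries at 41 and 45 M reads. Over all genes 164 were called without siYAP 2, beside 909 with all libraries, and the count without siControl 2 is not given here. Without siControl 2 the values were 0.44 for COL1A1, 0.13 for FN1, 0.12 for COL4A3, -0.21 for NID2 and -0.42 for COL12A1, and without siYAP 2 they were 0.48, 0.16, 0.20, -0.33 and -0.35. The FN1 call was also lost without siControl 1 (0.16) or siYAP 1 (0.15).

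With siTAZ in A549 fibronectin, versican, COL1A1 and the laminin chains LAMC1, LAMB3, LAMB2 and LAMA3 rose. They are 7 of 43 members, all higher, 16.3%, beside 13.3% of all genes tested (7.21% higher, 6.13% lower). The median log2 change was 0.12, beside 0. By edgeR 16 of the 43 members had an unadjusted p below 0.05, beside 25.4% of all genes.

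FN1 was at 1443, 1061 and 1370 CPM with siTAZ, above 984, 668 and 983 in every control (0.57 ± 0.04, 1.48-fold, adjusted p = 1.27e-12). Its share of all member CPM went from 21.0% ± 2.77 to 27.2% ± 2.88. VCAN was at 143, 163 and 145 CPM and at 177, 195 and 179, without overlap (0.29 ± 0.04, adjusted p = 2.16e-06). COL1A1 was at 6.52, 8.04 and 11.2 CPM with siTAZ, higher in each pair (0.70 ± 0.10, 1.62-fold, adjusted p = 7.9e-06).

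Of the 11 laminin chains tested 4 rose, each by a small amount, and none fell (36.4%, beside 13.3% of all genes called). LAMC1, the gamma chain of most laminins, was at 339, 337 and 307 CPM and at 386, 370 and 345 (0.16 ± 0.04, adjusted p = 0.00266), with no overlap. LAMB3 (0.18 ± 0.04, adjusted p = 0.0033), LAMB2 (0.16 ± 0.04, adjusted p = 0.00435) and LAMA3 (0.20 ± 0.05, adjusted p = 0.00542) overlapped their controls and were higher in each of the 3 pairs. LAMB1 and LAMA5, partners of LAMC1, did not pass (0.07 ± 0.04 and 0.02 ± 0.04). The collagen IV chains COL4A1 and COL4A2 were at 0.02 ± 0.07 and -0.02 ± 0.04, THBS1 at 0.07 ± 0.04 and SPARC at -0.22 ± 0.24.

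Without the block no member was called, beside 0.00625% of all genes, and 3 had an unadjusted p below 0.05 by edgeR. FN1, VCAN and COL1A1 then had adjusted p-values of 0.879, 0.878 and 0.879. DESeq2 with the block called 7 members, the same ones. The LAMB2 call was lost without siControl 2 (0.13) or siTAZ 2 (0.13), and the LAMA3 call without siControl 3 (0.14) or siTAZ 3 (0.10).

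**Figure D4:**
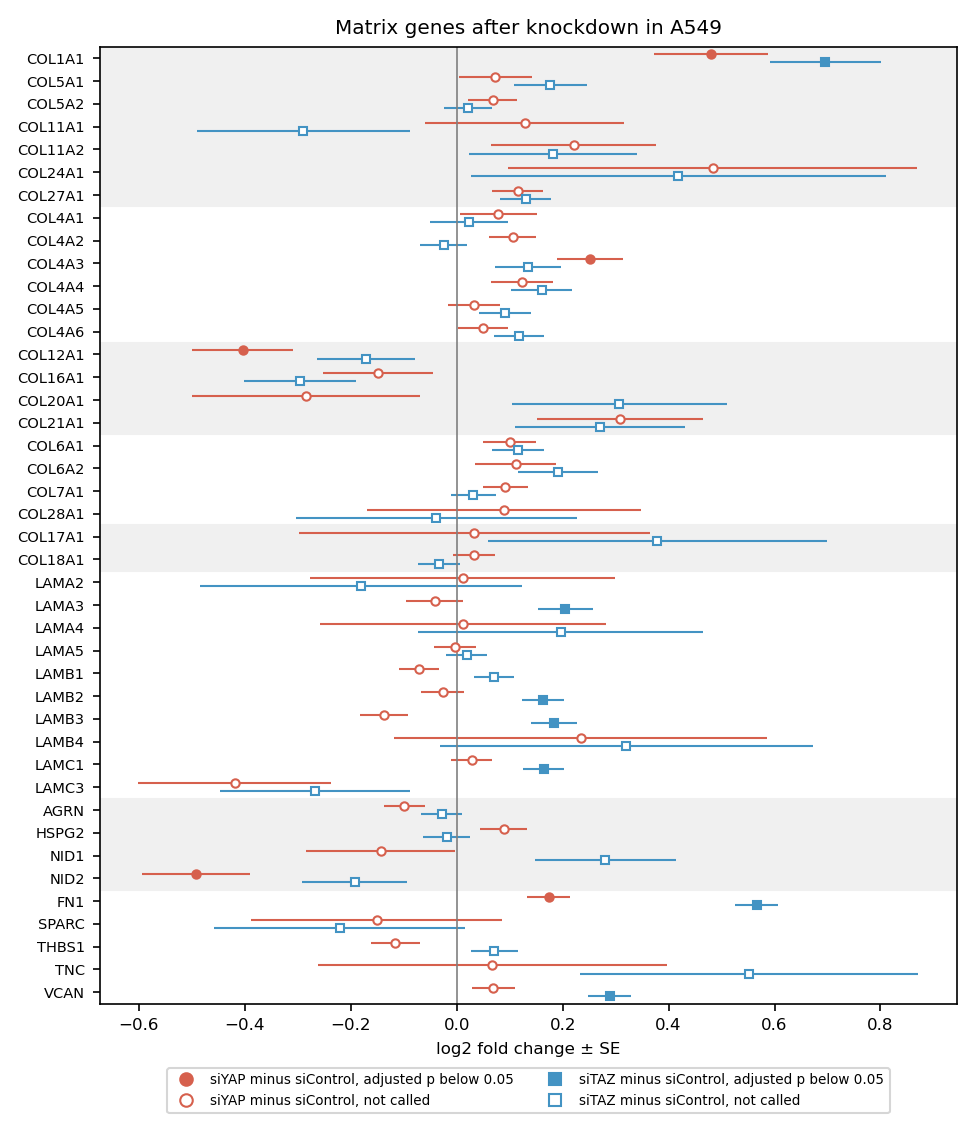
Log2 change of 42 members tested in A549, siYAP against siControl and siTAZ against siControl, with the standard error of the fit with the replicate number as a block. Filled points have an adjusted p below 0.05: 3 above and 2 below 0 for siYAP, and 7 above 0 for siTAZ, with FN1 at 0.57 and COL1A1 at 0.70.

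Between the knockdowns in A549, 9 members were lower with siYAP than with siTAZ and none was higher, 20.9% of 43, beside 7.03% of all genes (2.52% higher, 4.52% lower). FN1 differed by -0.39 ± 0.04 (adjusted p = 1.58e-08), LAMB3 by -0.32 ± 0.04 (adjusted p = 4.01e-06) and VCAN by -0.22 ± 0.04 (adjusted p = 0.000309). LAMA3 (-0.25 ± 0.05), LAMB2 (-0.19 ± 0.04), THBS1 (-0.19 ± 0.05), LAMB1 (-0.14 ± 0.04), LAMC1 (-0.14 ± 0.04) and NID1 (-0.42 ± 0.14, adjusted p = 0.0494) followed. LAMB3 was at 51.6, 57.0 and 63.4 CPM with siYAP and at 66.8, 71.8 and 76.3 with siTAZ, so every siTAZ library lay above every siYAP library. All 9 were lower with siYAP in each of the 3 pairs. Of them 5 are laminin chains, of 11 tested (45.5%, beside 7.03% of all genes called).

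Without the block no member differed, beside 0.0125% of all genes, and 3 had an unadjusted p below 0.05 by edgeR. DESeq2 with the block did not call NID1. The count fell to 5 without siYAP 2, 5 without siYAP 3 and 4 without siTAZ 2. Over all genes 308 were called without siYAP 2, beside 1126 with all libraries, and the other counts over all genes are not given here. The call was lost for NID1 without siControl 1 or 2, siYAP 2 or 3 or any siTAZ library (-0.47 to -0.32), for LAMC1 without siYAP 2 or 3 or any siTAZ library (-0.15 to -0.12), for LAMB1 without siYAP 1 or 2 or siTAZ 1 or 2 (-0.14 to -0.12), for LAMA3 without siYAP 2 or 3 or siTAZ 3 (-0.25 to -0.14), for THBS1 without siYAP 3 (-0.17) or siTAZ 2 (-0.19), and for LAMB2 without siTAZ 2 (-0.16).

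**Figure D5:**
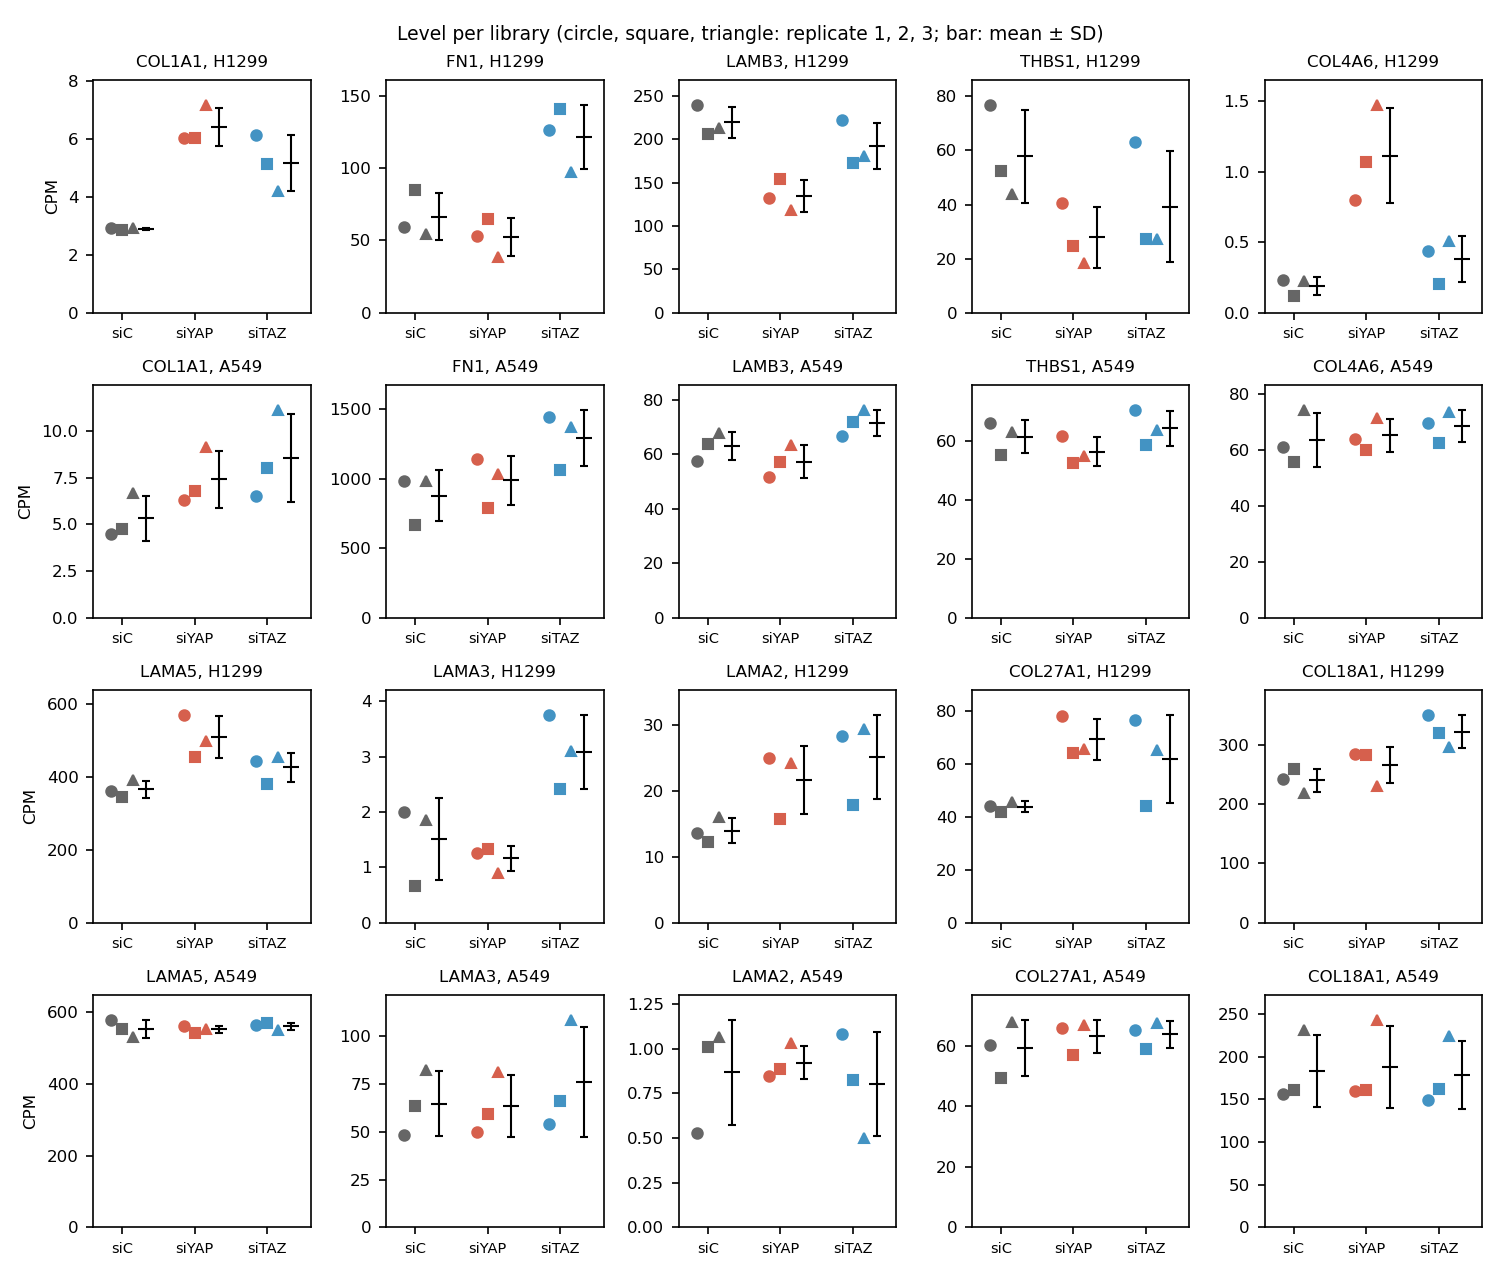
Level of 10 members in each of the 18 libraries as CPM scaled within each line, 1 point per library with the marker giving the replicate number, and mean ± SD per group (n = 3). COL1A1 lies higher with either siRNA in both lines, and FN1 reaches 1291 ± 203 with siTAZ in A549 and 121 ± 22.2 in H1299.

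The lines share no library, so calls made in each can be set side by side over the 33 members tested in both. With siYAP, COL1A1 was called higher in both lines, 12.5% of the 8 H1299 calls and 20% of the 5 A549 calls. Over all 14027 genes tested in both, these shares were 17.5% and 54.8%. With siTAZ, COL1A1, FN1, LAMA3 and LAMB2 were called higher in both, 44.4% of the H1299 calls and 57.1% of the A549 calls, beside 23.8% and 44.4% of all genes. Between the knockdowns, FN1, LAMA3, LAMB3 and NID1 were lower with siYAP in both lines, 50% and 44.4% of the calls, beside 18% and 31.6% of all genes. The A549 calls hold with the block only.

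Whether a response differed between the lines was tested as the H1299 log2 change minus the A549 log2 change. For siYAP, 3 of 35 members differed, 8.57%, beside 2.26% of all genes: COL4A6 (2.46 ± 0.37, adjusted p = 0.00286), LAMA5 (0.48 ± 0.12, adjusted p = 0.0483) and LAMB3 (-0.57 ± 0.14, adjusted p = 0.0385). Within H1299, COL4A6 reached the cutoff of the filter only in the siYAP libraries, so its call and its part in the count are a description. LAMA5, higher in all siYAP libraries of H1299, was at 553 ± 24.8 and 551 ± 10.2 CPM in A549 with siControl and siYAP. COL1A1 and THBS1 did not pass, at 0.66 ± 0.20 (adjusted p = 0.0852) and -0.93 ± 0.38 (adjusted p = 0.198). For siTAZ, 2 of 35 differed, 5.71%, beside 5.96% of all genes: COL18A1 (0.45 ± 0.12, adjusted p = 0.0364) and HSPG2 (0.43 ± 0.13, adjusted p = 0.0499). FN1 and COL1A1 did not pass, at 0.30 ± 0.23 (adjusted p = 0.449) and 0.14 ± 0.20 (adjusted p = 0.735). Without the block, COL4A6 remained for siYAP and no member for siTAZ, beside 0.0822% and 0.379% of all genes, and 5 members had an unadjusted p below 0.05 for siTAZ by edgeR.

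Other genes of the matrix were read from 3 lists. Without the block no gene of these lists was called with either siRNA in A549. Of collagen synthesis, folding and crosslinking genes, 1 rose and 2 fell of 24 tested with siYAP in H1299 (12.5%, beside 16.6% of all genes), and 1 rose and 1 fell of 23 in A549 (8.7%, beside 5.68%). With the replicate number as a block the H1299 counts were 4 and 4 of 24, beside 28.3% of all genes (13.6% higher, 14.7% lower). PLOD2, the lysyl hydroxylase of collagen telopeptides, fell from 101 ± 16.2 to 31.0 ± 7.46 CPM in H1299 (-1.70 ± 0.16, adjusted p = 0.000158) and from 215 ± 31.6 to 139 ± 18.2 in A549 (-0.63 ± 0.04, adjusted p = 1.36e-13). The crosslinking oxidases LOXL1 and LOXL2 moved apart with siYAP in H1299 (0.72 ± 0.15 and -0.66 ± 0.14, adjusted p = 0.00697 and 0.00787). With siTAZ, 4 rose and 1 fell of 24 in H1299 (20.8%, beside 23.3%), and 8 rose and 2 fell of 23 in A549 (43.5%, beside 13.3%). The H1299 counts with the block were 7 and 2 of 24, beside 35.5% of all genes (16.7% higher, 18.9% lower). The collagen chaperone SERPINH1 rose in both (0.76 ± 0.15 and 0.20 ± 0.04, adjusted p = 0.00371 and 0.000872), LOXL1 and ADAMTS14 rose in H1299 (0.83 ± 0.15 and 1.29 ± 0.36), and in A549 COLGALT1 rose (0.19 ± 0.04) and PLOD2 fell (-0.23 ± 0.04, adjusted p = 6.85e-05). P3H2 and BMP1 in A549 with siYAP were at 0.20 ± 0.06 (adjusted p = 0.05 as rounded, called) and 0.11 ± 0.04 (not called).

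Of other matrix glycoproteins and proteoglycans, 7 rose and 2 fell of 22 with siYAP in H1299 (40.9%, beside 16.6% of all genes) and 2 rose and 2 fell of 23 in A549 (17.4%, beside 5.68%). With siTAZ, 8 rose and 1 fell of 22 (40.9%, beside 23.3%) and 7 rose and 2 fell of 23 (39.1%, beside 13.3%). With the block the H1299 counts were 9 and 2 for siYAP and 12 and 1 for siTAZ, of 22, beside 28.3% and 35.5% of all genes. Thrombospondin-3 (THBS3) rose with siYAP in both lines (0.88 ± 0.12 and 0.32 ± 0.07, adjusted p = 0.000954 and 0.00155) and with siTAZ in H1299 (0.62 ± 0.12, adjusted p = 0.00318), while its relative THBS1 did not rise in any of the tests above. THBS4 and TNXB also rose with siYAP in H1299 (0.93 ± 0.20 and 0.97 ± 0.21), and with siTAZ FREM2 rose and SPP1 (osteopontin) fell (0.73 ± 0.15 and -0.69 ± 0.14). In A549, EFEMP1 fell with siYAP and siTAZ (-0.52 ± 0.13 and -0.69 ± 0.14), TGFBI fell with siYAP (-0.19 ± 0.04), and MATN2 and FBN1 (fibrillin-1) rose with siTAZ (0.32 ± 0.05 and 0.33 ± 0.06).

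Of the receptors of collagen, laminin and fibronectin, 7 rose and 1 fell of 21 with siYAP in H1299 (38.1%, beside 16.6% of all genes) and 8 rose and none fell with siTAZ (38.1%, beside 23.3%). With the block these were 7 and 3, and 12 and 2, of 21, beside 28.3% and 35.5% of all genes. In A549 none of 20 was called with siYAP and 5 rose with siTAZ (25%, beside 13.3%). The laminin receptors ITGA7 and BCAM and the collagen receptor ITGA11 rose with siYAP in H1299 (0.71 ± 0.15, 0.61 ± 0.14 and 1.54 ± 0.35). The collagen receptor DDR1 rose with siTAZ in H1299 (0.51 ± 0.11, adjusted p = 0.00493) and in A549 (0.20 ± 0.04, adjusted p = 0.000533). ITGA7 and ITGB3 rose with siTAZ in H1299 (0.72 ± 0.15 and 0.89 ± 0.19), and the collagen receptor ITGA2 and the fibronectin receptor ITGA5 in A549 (0.32 ± 0.04 and 0.28 ± 0.06). ITGB1, ITGA2 and ITGB6 had the smallest adjusted p among receptors with siYAP in A549 (0.075, 0.0817 and 0.149), and none passed.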

How the data were processed

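The deposited values are unnormalized counts of reads for each gene, in a table for H1299 and another for A549. The tools were cutadapt, STAR 2.4.2a and DESeq2 on build GRCh38, per the submitters' processing notes. Which counter, gene models and strand setting were used is not given in the sources used here. Log2 fold changes that the authors deposited were used only to learn their design: DESeq2 1.42.0 refits of the deposited counts gave them within 0.001 for 100% of H1299 genes with no replicate term and 99.99% of A549 genes with one. The main fits follow this.

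Counts were analysed with edgeR 4.0.16 (R 4.3.3): filterByExpr, TMM, quasi-likelihood F test over the 9 libraries of a line, with Benjamini-Hochberg adjustment across every gene of the fit. SE is the absolute log2 change divided by the square root of F. Genes in both tables were also fitted jointly over 18 libraries, with the block in A549 only. The main tests were run on simulated counts first. Same-numbered libraries of a line deviated together, with correlations of 0.108 to 0.383 in H1299 and 0.384 to 0.729 in A549. Each was over 0.1, so the numbers were taken to pair libraries. Differently numbered libraries of different groups ran from -0.324 to 0.16 in H1299 and from -0.55 to 0.279 in A549. The ranges of same and different numbers thus overlap in H1299 and do not in A549. The main H1299 fits leave this pairing out, as the authors' fold changes do. Replicates differed by more than sampling noise (chi-square per degree of freedom 5.97 to 27.5).

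Alternatives were the other block setting, DESeq2, RLE size factors, no filter, and leaving out each library or replicate number. Named were, per comparison, members with an adjusted p below 0.05 and a mean of at least 1 CPM (at most 12), FN1, COL1A1, COL4A1, COL4A2, LAMB1, LAMC1, THBS1 and SPARC, the 10 members with the highest control level per kb, partner chains, and 3 genes of each other list. Members, lists and rules were chosen with earlier results of these data known. A member that counts, medians and sums include is not reported by name here and is not drawn.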

Additional observations from a re-analysis of the deposited data

Results flagged for a closer look

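The response of 5 members differed between the lines by a test of the difference itself, the H1299 log2 change minus the A549 log2 change in the joint fit (edgeR, adjusted over all 15816 genes). For siYAP these were COL4A6 at 2.46, LAMA5 at 0.48 and LAMB3 at -0.57. For siTAZ they were COL18A1 at 0.45 and HSPG2 at 0.43. These are 8.57% of the 35 members tested for siYAP, beside 2.26% of all genes, and 5.71% for siTAZ, beside 5.96% of all genes. COL4A6 rests on 4, 2 and 4 reads in the H1299 controls and 16, 20 and 31 with siYAP, against 61.0, 55.7 and 74.5 CPM in A549 controls and 64.0, 60.1 and 71.7 with siYAP. COL4A6 was called with and without the replicate block (adjusted p = 0.00286 and 0.0315). Within H1299 it reached the cutoff of the filter on low counts only in the siYAP libraries. Its call and its part in the 8.57% are therefore a description.

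The other 4 calls were lost without the block, with adjusted p-values of 0.181 for LAMA5, 0.217 for LAMB3, 0.437 for COL18A1 and 0.5 for HSPG2. They were also lost without any 1 of the 9 A549 libraries (LAMA5 0.45 to 0.51, LAMB3 -0.59 to -0.54, COL18A1 0.44 to 0.47, HSPG2 0.37 to 0.47). In H1299, leaving out siControl 1, siControl 3, siYAP 1 or siYAP 3 ended the LAMA5 call (0.48, 0.53, 0.39 and 0.50) and the LAMB3 call (-0.50, -0.59, -0.55 and -0.48). Leaving out siControl 1, siControl 3 or siTAZ 1 ended the COL18A1 call (0.46, 0.39 and 0.38), and the same libraries or siTAZ 3 ended the HSPG2 call (0.40, 0.41, 0.33 and 0.46).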

How the results depend on the processing

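The values compared were those of members called in the main fit or with the other block setting. With RLE size factors or with no filter on low counts, all 110 of them kept direction and side of the threshold. Members outside the 110 could still join. RLE gave 6 calls in place of 5 for siYAP in A549, beside 946 and 909 of all genes. With no filter there were 11 in place of 10 (H1299 siTAZ) and 8 in place of 7 (A549 siTAZ). Between the A549 knockdowns there were 10 in place of 9, and for control lines 29 in place of 28. Over all genes these no-filter counts were 3608, 2087, 1158 and 12534. DESeq2 kept 100, weakened 6 and strengthened 2. The replicate block decided most: added in H1299 it strengthened 29 member values, and removed in A549 it weakened 25. With the replicate block, calls in H1299 were 4461 of all genes and 16 members for siYAP, 5606 and 22 for siTAZ, and 3399 and 18 between them. With no replicate block, calls in A549 were 1, 1 and 2 of all genes and 0, 0 and 0 members. DESeq2 called 377, 1132 and 525 of all genes there, and 2 members for siYAP.

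For line differences of siYAP the counts of all genes were 13 with no replicate block, 1712 with a block within each line and 749 by DESeq2, with 1 and 11 members under the first and second of these. For siTAZ they were 60 and 2797, with 0 and 12 members, and DESeq2 called 4 members. What the replicate number stands for was not tested.

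Leaving out libraries or a replicate number moved H1299 counts over 34 to 4430 genes and 0 to 15 members (siYAP), 144 to 5267 and 1 to 20 (siTAZ), and 190 to 2945 and 1 to 11 (between them). In A549 the ranges were 157 to 1027 and 0 to 7, 940 to 2142 and 6 to 10, and 289 to 1276 and 4 to 10. For control lines they were 11618 to 12627 and 28 to 30, and for line differences 46 to 1373 and 1 to 7 (siYAP) and 222 to 2025 and 0 to 7 (siTAZ). THBS1 between the H1299 knockdowns ran from -0.8717 without siYAP 1 to 0.0208 without siTAZ 1 (adjusted p = 0.974), where it turned sign. Members under 1 CPM (11 of 42 in H1299 controls, 15 of 52 in A549) rest on few reads.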

Other observations

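Several members were highest or lowest in the same replicate number of every group. How many of all genes did so was not counted, and same-numbered libraries deviated together over all genes tested. The pattern is therefore not shown to be particular to these members. In A549, COL6A1 was at 37.2, 31.0 and 59.6 CPM in controls 1, 2 and 3, at 41.7, 32.4 and 64.3 with siYAP and at 39.0, 33.6 and 66.4 with siTAZ, so number 3 was highest in every group. COL6A2, COL5A1, COL7A1, COL18A1, HSPG2, AGRN and LAMA3 were also highest in number 3 of every A549 group. COL21A1, a fibril-associated collagen, was at 3.58, 4.13 and 2.21 CPM in A549 controls, at 7.45, 4.22 and 2.17 with siYAP and at 6.96, 4 and 2.01 with siTAZ, so number 3 was lowest in each.

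In H1299, number 2 was lowest in every group for COL12A1 (19.4, 24.9 and 25.9 CPM with siControl, siYAP and siTAZ), COL17A1, COL13A1, LAMA2 and LAMC1. FN1 was highest in number 2 of every H1299 group and lowest in number 2 of every A549 group. The labels give no meaning to these numbers beyond the replicate.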
